A study of Schizosaccharomyces pombe with 2 samples.

Results

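Meiosis and sporulation genes of the fission yeast Schizosaccharomyces pombe were examined in a strain labelled pob3 and in a wild-type strain labelled wt. The members were 51 genes listed by name, and a spot was taken as a member when its name was the symbol or a systematic identifier of a listed gene. A total of 49 were found among 4868 gene names: 17 by symbol, 29 by systematic identifier and 3 (spo5, spn7 and mde5) by an older identifier. Of these, 48 were measured on both arrays, out of 4766 genes in all. The genes mei4 and meu27 were not analysed here.

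Fission yeast grows as haploid cells and enters meiosis when nutrients run out and cells of opposite mating type meet. The kinase Pat1 blocks meiosis in growing cells, Mei3 inhibits Pat1, and the RNA-binding protein Mei2 then starts the programme. Transcription factors, first Ste11 and later Mei4, turn on recombination, segregation and spore genes. Several meiotic transcripts that arise in growing cells are removed by the RNA-binding protein Mmi1 and the nuclear exosome. Pob3 belongs to FACT, a complex that handles histones while chromatin is transcribed.

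Total RNA of both strains was hybridised to 2 spotted arrays of open reading frames, and the dye of the pob3 RNA was Cy5 on replicate 1 but Cy3 on replicate 2. The labels do not give the pob3 allele, the growth state or the mating type. Nor do they say whether each array had its own cultures, and p-values therefore cover array-to-array spread that may be technical. As a check of the labels, the pob3 transcript had a log2 ratio of -1.26 ± 0.20 (SD, n = 2 arrays; limma adjusted p = 0.0612). Ratios are pob3 over wild type after dye normalisation, with 2 spots per gene and array averaged first, and a value after ± is the SD over the 2 arrays. Some genes are given by the mean alone, with both arrays in the plot of member ratios. The number of arrays limits their precision.

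None of the 48 measured genes passed limma's test at an adjusted p of 0.05 (Benjamini-Hochberg over all 4766 genes), where 0.525% of all genes did (0.441% higher and 0.0839% lower). At an unadjusted p of 0.05, 5 of the 48 were higher and 0 lower, against 4.47% and 2.94% of all genes (7.41% in both directions). The 5 were spo5, meu13, meu31, spo6 and mde5, with adjusted p-values between 0.159 and 0.659. Under the study's own threshold of 2-fold, applied to both arrays, 0 members were higher and 0 lower, against 0.755% and 0.231% of all genes. At 1.5-fold on both arrays 2 were higher, spo5 and meu31, and 0 lower, against 2.06% and 1.17% of all genes. The median log2 ratio of the members was 0.10, with the central 50% of members between -0.14 and 0.24, beside a median of 0.02 and a central 50% between -0.17 and 0.23 for all genes. The member median was -0.15 on replicate 1 and 0.13 on replicate 2, so the arrays put the list on opposite sides of 0. Missing the threshold is no evidence of equal levels.

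Most spots of these genes gave signal above local background in both strains. So did most spots of all genes, and signal at a spot does not by itself show that its gene was expressed. Binding of other transcripts to these spots was not tested. In a bulk sample, few cells with much of a transcript and many cells with little cannot be told apart. In pob3, 98.0% of the 196 member spots lay above local background, beside 98.4% of all gene spots and 4.74% of empty and buffer spots. In wild type the shares were 95.4%, 97.5% and 3.46%. A Cy3 spot counted as above background when its signal exceeded the local background by 2 background SDs, and a Cy5 spot when it exceeded 1.5 times that background. All 4 spots of a gene passed for 46 of 49 members in pob3 and for 44 in wild type. Of the 13 member spots below the limit, 10 were in Cy3 and 3 in Cy5. By dye, 94.9% of member spots passed in Cy3 and 98.5% in Cy5, against 97.4% and 98.5% of all gene spots. The lowest share in a single spot file was 91.8%, for wild type in Cy3 on replicate 1.

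**Figure D1:**
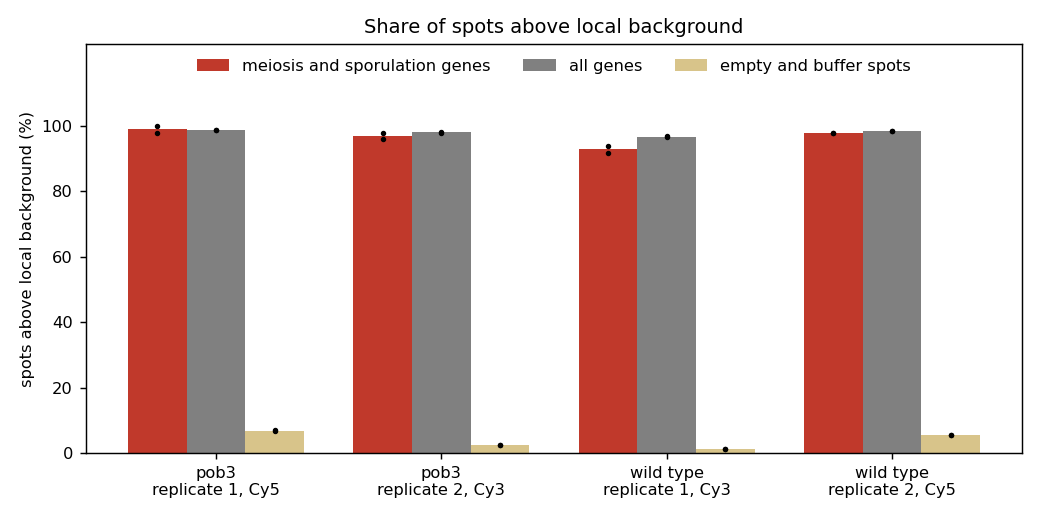
Share of spots above local background (%) by strain, replicate and dye for the 49 meiosis and sporulation genes, all genes, and empty and buffer spots. Bars are the mean of 2 spot files and points the single files. The member bars lie close to those of all genes, and wild type in Cy3 holds the lowest file, at 91.8%.

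The member with the fewest spots above background was mde3, a protein kinase gene of sporulation. None of its 4 wild-type spots and 2 of its 4 pob3 spots passed, both of the latter in Cy5 on replicate 1. Its background-subtracted pob3 signals there were 486.5 and 316, against 26.5 and 12 in wild type. On replicate 2 they were 93 and 8 in pob3 against -61.5 and 25 in wild type, and no spot was kept, so no ratio over both arrays was formed. For meu26 the wild-type spots passed on replicate 2 alone, so its wild-type level on replicate 1 is a bound; its log2 ratio was -0.09 ± 0.55. No member spot was saturated in either strain.

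Recombination genes are described first. The proteins of rec6, rec7, rec12, rec14, rec15 and mde2 take part in making the DNA breaks that start meiotic recombination, with Rec12 the Spo11-type enzyme. Rec8 and Rec11 are meiotic cohesin subunits, Rec10, Rec25 and Rec27 belong to the linear elements along chromosomes, and Dmc1, Meu13 and Mcp7 act in strand exchange. Of these 14 genes 0 passed the test and 1, meu13, had an unadjusted p under 0.05, beside 7.41% of all genes. Of the means, 7 lay above 0 and 7 below, with 52.0% of all genes above 0. Their median was 0.05, with -0.18 on replicate 1 and 0.29 on replicate 2. Means ran from -0.46 for rec12 to 0.71 for meu13.

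The signals of meu13, a homologue of budding yeast Hop2, minus local background were 25530.5 and 31947 in pob3 against 9017.5 and 10517.5 in wild type on replicate 1. On replicate 2 they were 11119 and 10893.5 in pob3 against 5265.5 and 4767.5 in wild type. Across all gene spots, Cy5 was the brighter dye on replicate 1, with median signals of 5711.5 and 5660 against 1994 and 1962.5 in Cy3, so raw signals there were higher in pob3 for the median gene too. After normalisation the log2 ratio of meu13 was 0.17 on replicate 1 and 1.25 on replicate 2. The mean was 0.71 ± 0.76 (1.63-fold, adjusted p = 0.643), above 0 on both arrays and resting mostly on replicate 2.

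For rec12 the raw signals on replicate 1 were 3539 and 3366.5 in pob3 against 1507.5 and 1194 in wild type. On replicate 2, where median signals of all genes were 4433.5 and 4207 in Cy3 and 4805 and 4528.5 in Cy5, rec12 had 2815 and 1945 in pob3 against 5875.5 and 3661.5 in wild type. The ratios were -0.17 and -0.76, with a mean of -0.46 ± 0.42 (adjusted p = 0.756), so that pob3 was the lower strain on both arrays. With print-tip loess the mean of rec12 was -0.23. The gene rec14, related to budding yeast Ski8, had ratios of 0.05 and 0.80 and a mean of 0.43 ± 0.52 (adjusted p = 0.783), which was 0.14 with print-tip loess and 0.27 with median centring. Signals of rec14 were 13298.5 and 11589 in pob3 against 4629 and 4058 in wild type on replicate 1. They were far dimmer on replicate 2, at 1197 and 1470.5 against 786.5 and 958.5. The cohesin gene rec8 had -0.33 and 0.04, a mean of -0.14 ± 0.26 (adjusted p = 0.931), with the arrays on opposite sides of 0.

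The widest disagreement among the recombination genes was that of dmc1, a meiotic RecA-type recombinase gene. Its signals were 1146 and 1230.5 in pob3 against 573 and 764.5 in wild type on replicate 1, and 1456 and 1292 against 456 and 480 on replicate 2. The normalised ratio was -0.78 on replicate 1 and 1.56 on replicate 2, while both spots of an array lay close together (-0.69 and -0.86, then 1.64 and 1.48). The mean of 0.39 ± 1.65 (adjusted p = 0.895) is smaller than the spread between the arrays.

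The other recombination genes had means between -0.24 for rec6 and 0.24 for rec7. Ratios of rec7 were -0.26 and 0.75, and 1 of its 4 wild-type spots lay below the background limit. The linear element genes had means of 0.12 (rec10), 0.21 (rec25) and -0.03 (rec27), and the cohesin partner gene rec11 had 0.22. For rec15 the arrays gave -0.42 and 0.36, for mde2 -0.19 on both, and for mcp7, a homologue of budding yeast Mnd1, -0.04 and -0.01. The duplicate spots of mde2 on replicate 1 gave -0.62 and 0.24.

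**Figure D2:**
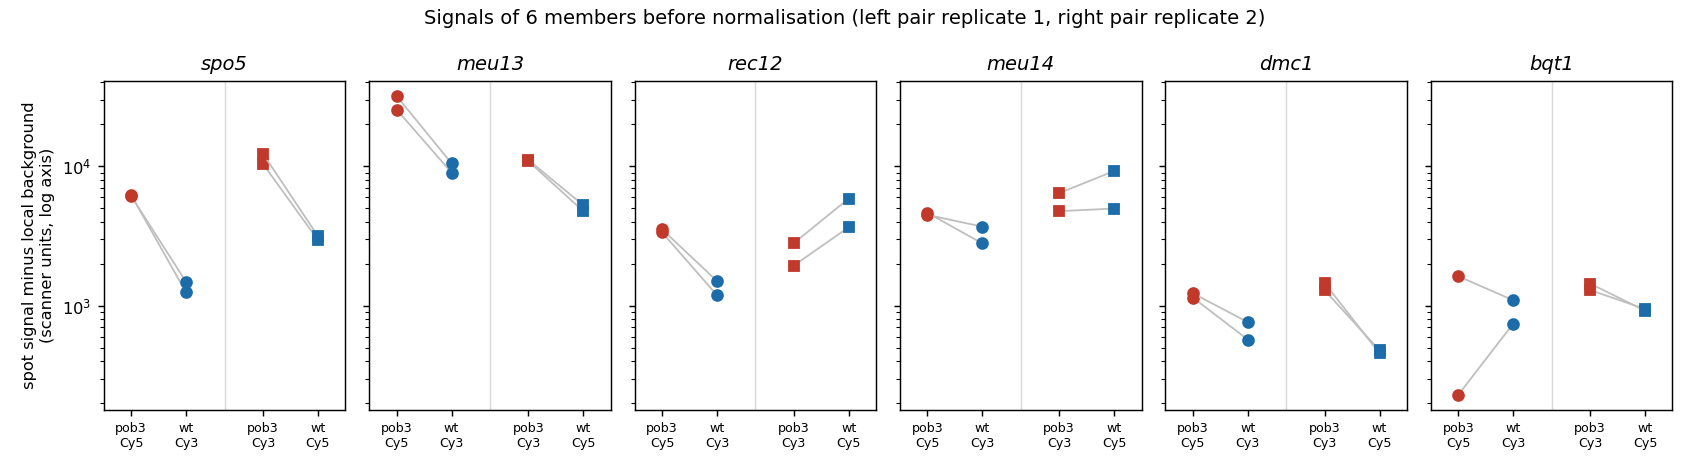
Spot signal minus local background (scanner units, log axis) of 6 members in pob3 (red) and wild type (blue), before normalisation. Circles are the 2 spots of replicate 1, squares those of replicate 2, and lines join the strains of a spot; spo5 and meu13 are the members with the highest mean ratios, and the lower pob3 spot of bqt1 on replicate 1 stands apart at 230.5.

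The meu genes were named for transcripts that rise in meiosis. Of 10 measured, 0 passed the test and 2 (meu13 and meu31) had an unadjusted p under 0.05, beside 7.41% of all genes. There were 5 means above 0 and 5 below, with 52.0% of all genes above 0. The median was 0.04 (0.03 and -0.06 on the arrays). Besides meu13, the smallest p-values were those of meu31 and meu14. The gene meu31 had signals of 1242 and 1839 in pob3 against 147 and 332 in wild type on replicate 1, and 808 and 512.5 against 546.5 and 565.5 on replicate 2. Its ratios of 0.59 and 0.61 were nearly equal, with a mean of 0.60 ± 0.01 (1.52-fold, adjusted p = 0.632). The duplicate spots gave 0.64 and 0.55 on replicate 1 and 0.84 and 0.39 on replicate 2, and with print-tip loess the mean of meu31 was 0.32 (adjusted p = 0.998).

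The gene meu14, whose protein marks the leading edge of the forming spore membrane, was the lowest of the meu and of the spore genes. Its signals were 4488.5 and 4646.5 in pob3 against 3695 and 2799.5 in wild type on replicate 1, and 4774 and 6432.5 against 4984.5 and 9259 on replicate 2. The ratios were -0.96 and -0.14, with a mean of -0.55 ± 0.58 (adjusted p = 0.726). Pob3 was the lower strain on both arrays, by a small margin on replicate 2, where the duplicate spots disagreed in sign (0.10 and -0.38). Among the remaining meu genes, meu29 had 0.65 and -0.16, meu1 0.39 and -0.19, and meu22 -0.29 and 0.55, each with the arrays on opposite sides of 0. The means of meu15, meu17 and meu32 were -0.03, -0.12 and -0.08. On replicate 1 the duplicate spots of meu32 gave 0.57 and -0.89, the first with its wild-type signal below the background limit.

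Spore genes encode septins of the spore membrane (spn5, spn6 and spn7), a spindle pole body protein from which that membrane grows (spo15), a kinase and its regulatory subunit (spo4 and spo6) and a spore surface protein (isp3). Of 12 measured, 0 passed the test and 2 (spo5 and spo6) had an unadjusted p under 0.05, beside 7.41% of all genes. Of the means, 6 lay above 0 and 6 below, with 52.0% of all genes above 0. The median was -0.005, with -0.16 and 0.07 on the arrays. The range ran from -0.55 for meu14 to 1.30 for spo5.

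The gene spo5, for an RNA-binding protein needed for meiosis and sporulation, had the largest mean of the 48 members. Its signals were 6229.5 and 6122.5 in pob3 against 1247 and 1485.5 in wild type on replicate 1. On replicate 2 they were 10418.5 and 12327 in pob3, in the other dye, against 2968.5 and 3168.5 in wild type. In all 4 spots the pob3 signal was the higher, and the normalised ratios were 0.77 and 0.51 on replicate 1 and 1.89 and 2.02 on replicate 2. The mean was 1.30 ± 0.93 (2.46-fold, adjusted p = 0.159), which ranked 33 from the top among the 4766 genes and did not pass the test. It passed with print-tip loess (1.27, adjusted p = 0.0263) and with the first spots alone (1.33, adjusted p = 0.0318). Over all alternative settings tested the adjusted p ran from 0.0263 to 0.919, and the ratio was 0.64 on replicate 1 alone and 1.96 on replicate 2 alone.

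Of the kinase pair, spo6, for the regulatory subunit, had pob3 signals of 2838 and 2590.5 against 601 and 497 in wild type on replicate 1. On replicate 2 the 1 kept spot gave 923.5 against 776. Its ratios were 0.62 and 0.54, a mean of 0.58 ± 0.06 (adjusted p = 0.659), with both arrays above 0. The kinase gene spo4 had 0.36 and -0.16, a mean of 0.10 ± 0.37 (adjusted p = 0.945). The septin gene spn7 had -0.14 and 0.90, and spn5 and spn6 had means of -0.14 and -0.02. The surface protein gene isp3, which lies 32 genes from a chromosome end in the reference gene order, had -0.28 and -0.27. The gene spo3, for a protein of the forespore membrane, had -0.01 and -0.68, spo15 had -0.23 and -0.36, and spo7 and spo14 had means of 0.11 and 0.01. The gene isp3 was the only member among the 50 genes nearest an end, where 254 of 4641 placed genes lay.

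**Figure D3:**
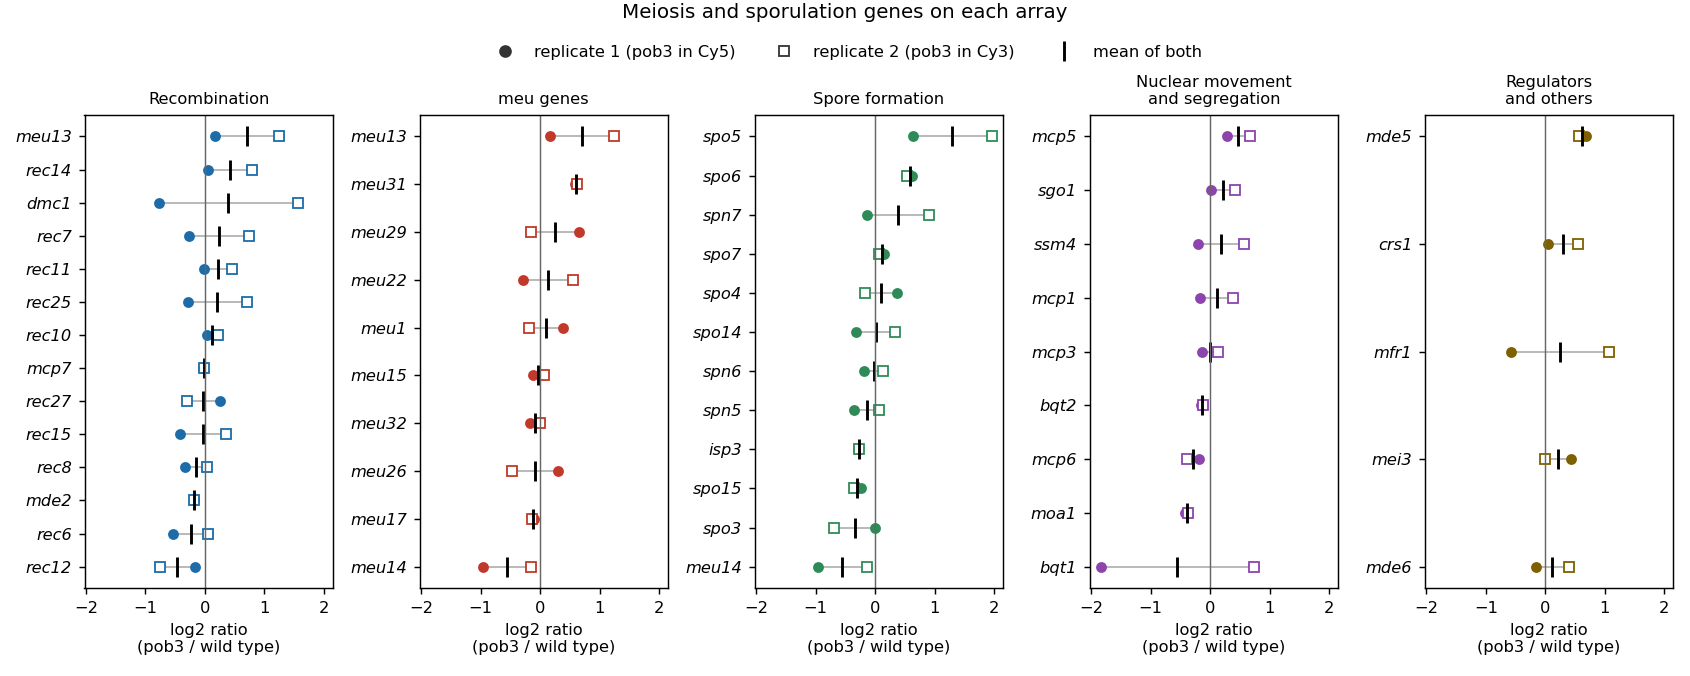
Log2 ratio of pob3 over wild type for each measured member by role: filled circles replicate 1, open squares replicate 2, black bars the mean (n = 2 arrays). meu13 and meu14 stand in 2 panels each. Most members straddle or lie near 0, spo5 reaches 1.96 on replicate 2 and bqt1 -1.83 on replicate 1.

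Genes for nuclear movement, telomere clustering and chromosome segregation numbered 9. Bqt1 and Bqt2 tether telomeres to the spindle pole body, Mcp5 anchors dynein at the cortex, Mcp6 shapes that pole body for nuclear movement and Ssm4 is a dynactin subunit. Moa1 orients sister kinetochores and Sgo1 protects cohesin. Of the 9, 0 passed the test and 0 had an unadjusted p under 0.05, beside 7.41% of all genes. Of the means, 4 lay above 0 and 5 below, with 52.0% of all genes above 0. The median was -0.01 (-0.17 and 0.38 on the arrays). The gene mcp5 was the highest, with ratios of 0.28 and 0.67 and a mean of 0.47 ± 0.27 (adjusted p = 0.756), or 0.24 with print-tip loess. Its signals were 789.5 and 1072.5 in pob3 against 164 and 111 in wild type on replicate 1, and 406.5 and 388.5 against 266 and 493 on replicate 2. The duplicate spots of mcp5 gave -0.06 and 0.62 on replicate 1, and 0.98 and 0.35 on replicate 2. The gene moa1 had -0.42 and -0.38, a mean of -0.40 ± 0.03 (adjusted p = 0.778), lower in pob3 on both arrays. For ssm4 the ratios were -0.20 and 0.57, with a mean of 0.19 ± 0.55 (adjusted p = 0.929). Of the others, sgo1 had 0.02 and 0.41, mcp1 -0.17 and 0.38, mcp3 -0.15 and 0.13, mcp6 -0.18 and -0.39, and bqt2 -0.15 and -0.12.

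The lowest mean of this group was that of bqt1, at -0.55 ± 1.82 (adjusted p = 0.837), with -1.83 on replicate 1 and 0.73 on replicate 2. On replicate 1 its duplicate spots gave -2.77 and -0.90. The pob3 signal was 230.5 at the first spot, which did not lie above background, and 1629 at the second. Wild type gave 746 and 1097. With the second spots alone its mean was -0.04, and with the first spots alone -1.06.

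Among regulators and others, mei3, the Pat1 inhibitor gene, had ratios of 0.43 and 0.003 and a mean of 0.22 ± 0.30 (adjusted p = 0.910), or 0.06 with print-tip loess. The meiotic cyclin gene crs1 had 0.05 and 0.55 (mean 0.30 ± 0.36, adjusted p = 0.845). The gene mfr1, for an activator of the anaphase-promoting complex in meiosis, had -0.58 and 1.06 (mean 0.24 ± 1.16, adjusted p = 0.930). The gene mde5, named for its dependence on Mei4, had signals of 1685.5 and 2039.5 in pob3 against 354 and 233 in wild type on replicate 1, and 664.5 and 1241.5 against 549.5 and 1047.5 on replicate 2. Its ratios were 0.68 and 0.57 (mean 0.62 ± 0.08, adjusted p = 0.607), and mde6 had -0.16 and 0.40 (mean 0.12 ± 0.40, adjusted p = 0.935). All 5 means lay above 0, with a median of 0.24 (0.05 and 0.55 on the arrays); 0 passed the test and 1, mde5, had an unadjusted p under 0.05. Across all genes 52.0% of means lay above 0 and 7.41% of genes had an unadjusted p under 0.05.

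Of 6 members listed as known targets of meiotic mRNA removal, mei4 was not analysed here and ssm4, rec8, spo5, crs1 and mcp5 were measured. Of these 5, 0 passed the test, 4 means lay above 0, and the median was 0.30 (0.05 on replicate 1 and 0.57 on replicate 2), beside 0.02 for all genes. Means lay above 0 for 54.2% of all members and 52.0% of all genes. On replicate 2 all 5 lay above 0, beside 66.7% of all members and 51.2% of all genes. On replicate 1 it was 3 of 5, beside 35.4% of all members and 49.9% of all genes. The RNA-binding protein gene mmi1, which is no member, had -0.27 and 1.36 (mean 0.55 ± 1.15, adjusted p = 0.779), so its arrays disagreed in sign.

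The arrays disagreed in sign for 25 of the 48 members and for 2261 of all 4766 genes. Over all genes the ratios of the 2 arrays correlated weakly (r = 0.155, Spearman's rho = 0.105), which limits every mean given here. Among the members the disagreement ran mostly in the same way. For 20 members, 41.7%, the normalised ratio favoured Cy3 on both arrays, that is below 0 on replicate 1 and above 0 on replicate 2, against 24.3% of all genes. For 5 members, 10.4%, it favoured Cy5 on both, against 23.1% of all genes. Higher in pob3 on both arrays were 25% of members and 26.8% of all genes, and lower on both 22.9% and 25.7%. Of the recombination genes 7 of 14 favoured Cy3 on both arrays and 1 favoured Cy5. The pattern depended on the scaling: with each spot file centred on its median in place of loess, 25% of members favoured Cy3 and 39.6% Cy5, against 27.3% and 25% of all genes. Member spots were dimmer than those of all genes. In the first spot files their median signals minus local background were 2094 in pob3 and 746 in wild type on replicate 1. The medians of all genes there were 5711.5 and 1994. On replicate 2 the member medians were 1264 and 1251, against 4433.5 and 4805 for all genes. No test was made of the dye pattern, nor of the part of signal level in it. The dyes were swapped between the arrays, so a dye effect of equal size on both cancels in the mean. It bears on the ratios of single arrays and adds to the spread between arrays, which enters the SDs and the limma p-values. Member ratios differed between arrays by a median of 0.51, against 0.37 for all genes, while duplicate spots of an array differed by a median of 0.18 and 0.20 for members and 0.17 and 0.15 for all genes.

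**Figure D4:**
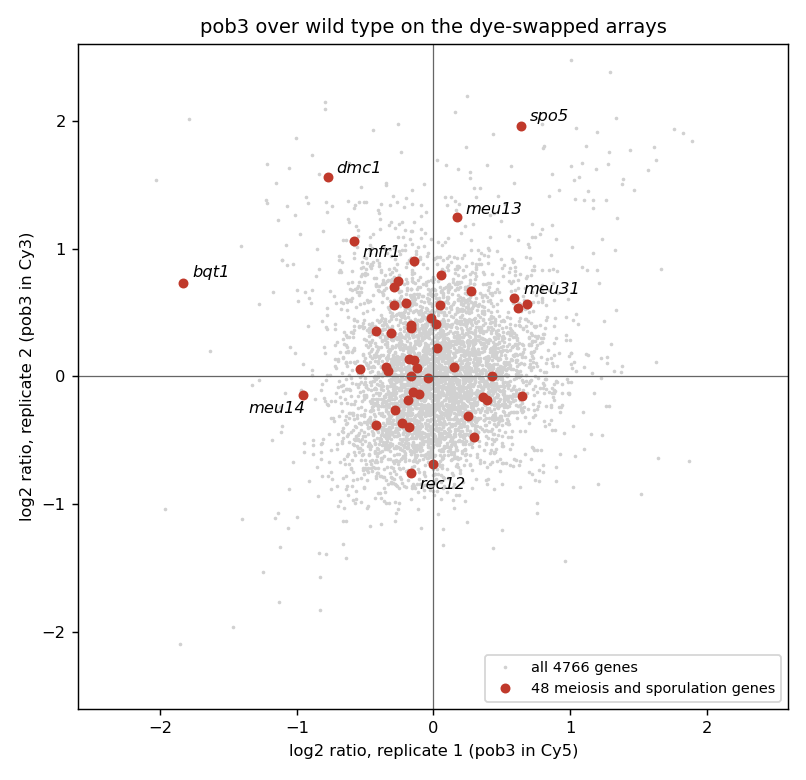
Log2 ratio of pob3 over wild type on replicate 1 (x) and replicate 2 (y) for all 4766 genes (grey) and the 48 members (red); 7 genes lie outside the axes. The upper left quadrant, where ratios favour Cy3 on both arrays, holds 20 members, among them dmc1, bqt1 and mfr1.

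**Figure D5:**
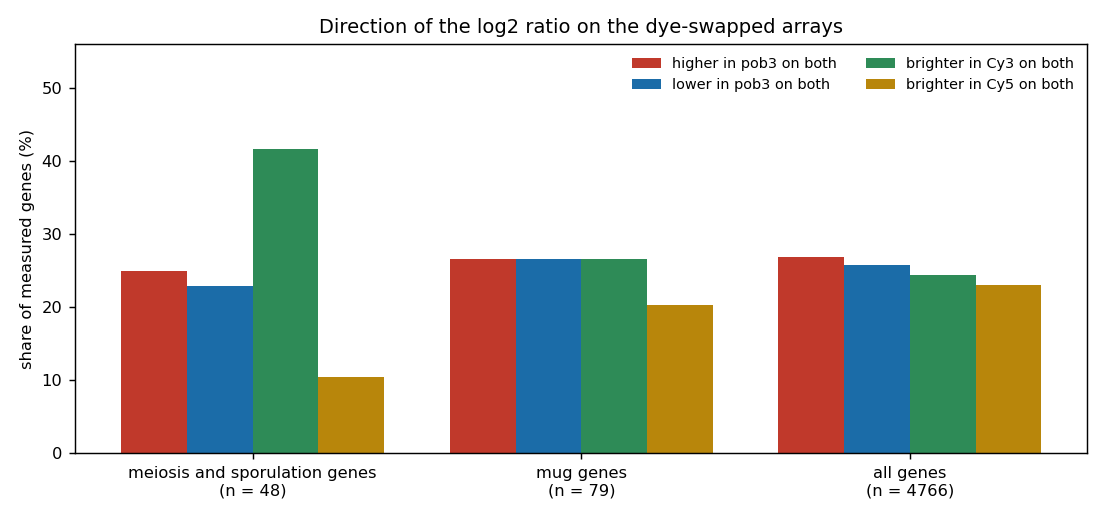
Share of measured genes (%) by the direction of the ratio on both arrays, for the 48 members, 79 mug genes and all 4766 genes. The bar for ratios favouring Cy3 on both arrays reaches 41.7% for the members, 26.6% for mug genes and 24.3% for all genes.

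Other genes of the meiotic pathway were read from lists of non-members. Among all genes, 7.41% had an unadjusted p under 0.05. Of 14 measured genes for entry into meiosis and meiotic mRNA removal, 0 passed the test (median 0.18, with -0.10 and 0.07 on the arrays, means from -0.76 to 0.55), and 1, mtl1, had an unadjusted p under 0.05, at -0.76 ± 0.28 (adjusted p = 0.473). Here mei2 had a mean of 0.33 ± 0.69 (adjusted p = 0.852), the Pat1 kinase gene pat1 -0.08 ± 0.05 (adjusted p = 0.954) and ste11 0.40 ± 0.47 (adjusted p = 0.787). Of 19 further recombination and synapsis genes 0 passed (median 0.07, with 0.22 and -0.01 on the arrays, means from -0.34 to 0.65), and 1, rad50, had an unadjusted p under 0.05, at 0.65 ± 0.68. Of 14 measured genes listed by name under spore formation 0 passed (median 0.06, with 0.08 and 0.18 on the arrays). Of these, isp7 alone had an unadjusted p under 0.05, at 1.01 on both arrays (adjusted p = 0.159). A role of isp7 in spores was not examined. Of 79 mug genes, named for transcripts upregulated in meiosis, 0 passed, with a median of 0.006 and means from -0.63 to 0.90. Of them 5 had an unadjusted p under 0.05, 4 higher and 1 lower, beside 4.47% higher and 2.94% lower among all genes.

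Mitotic relatives of members were read beside them. Of 13 measured, 0 passed the test, with a median of -0.03. The septin gene spn3 was the 1 with an unadjusted p under 0.05, beside 7.41% of all genes. It had the lowest mean, -0.85 ± 0.25 (adjusted p = 0.371). The mitotic cohesin genes rad21 and psc3, counterparts of rec8 and rec11, had means of -0.10 ± 0.27 and 0.03 ± 1.10, and the meiotic pair had -0.14 and 0.22.

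Markers of mating and sexual differentiation were read for the state of the cells. Of 18 listed, 11 had a spot. The listed mfm1, mfm2, mfm3 and mat1 genes were not analysed here, so the set is partial. Of 10 measured, 0 passed the test, 0 had an unadjusted p under 0.05, 8 means lay above 0 and the median was 0.25, with -0.004 on replicate 1 and 0.22 on replicate 2. Means above 0 made up 52.0% of all genes, and 7.41% of all genes had an unadjusted p under 0.05. Of 11 markers with a spot, all lay above background in pob3 in each spot file and 10 in wild type. Among all gene spots the shares were 98.4% and 97.5%. On replicate 2, 1 marker spot was saturated in each strain and file, with a signal of up to 65519 above background. On replicate 1 no marker spot was saturated, and the highest such signal was 6959. The part of such cells in the member values was not tested.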

How the data were processed

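The 4 spot files, 1 per duplicate spot and array, each hold 5760 spots. Per the file headers, the deposited intensities are medians of the scanned signal and of the local background for mutant and wt, not yet normalised. Each strain's dye was read from the labels. The series' design text names Lowess in GeneSpring and a 2-fold threshold as the authors' processing. The authors' deposited table has 1 column per array, and that of replicate 2 was taken as log2 ratios normalised by that Lowess, though nothing in it states so. The replicate 2 column had a median of -0.04, and against the present ratios of pob3 to wild type it had r = 0.977 and a slope of 1.10; it served as an alternative, for 3133 genes. The replicate 1 column was not used: with its rows placed as for replicate 2, 0 of its 768 values (36 distinct, median -0.12) fell on a gene spot, which leaves its direction, scale and centring unknown.

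The files give 1 background SD per spot without naming its dye. It was used for Cy3, since the background mean beside it had medians of 12.6 to 26.5, near the Cy3 background medians of 8.5 to 16 and far from those of Cy5 (544 to 598.5). Background was removed by limma's normexp with an offset of 50, then each file was loess-normalised, giving control spots no weight (limma 3.58.1, R 4.3.3). Spots with quality flag 0 and above background in at least 1 dye were kept and averaged to 1 log2 ratio per gene and array. The mean was tested against 0 with lmFit and eBayes (1 residual degree of freedom, 9.71 prior), adjusting by Benjamini-Hochberg over all genes; the procedure was tested on simulated data. Array names were matched to a RefSeq gene table (ASM294v3) by systematic identifier (3379), symbol (928) or older name (353), 15 matched several genes and 193 none. No sequence was used, and coordinates served only to order genes along the chromosomes.

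Members, lists, thresholds and tests were chosen with earlier results of these data known. The rule for named genes took mei4, ssm4, rec8, spo5, crs1, mcp5, mei3, mei2, pat1, ste11 and mmi1, any member past the test or over 2-fold on both arrays, and per role the 3 smallest p-values and the highest and lowest mean. Other genes with values in the text were added after their values were seen. Alternatives changed background correction, normalisation, spot filter, duplicate spots, arrays, eBayes settings and thresholds.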

Additional observations from a re-analysis of the deposited data

How the results depend on the processing

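The count of 0 members past the test was 1 (spo5, higher) with print-tip loess and with the first spots alone, and 0 in either direction with the remaining settings, an adjusted p of 0.10 included. The count of 0 over 2-fold higher on both arrays was 2 at 1.5-fold and 1 in the mean alone. With a single array it ranged from 0 to 4, and the count lower ranged from 0 to 1. No share of all genes is given for the mean alone or for single arrays. These counts can therefore not be read as a trait of the members. The member median of 0.10 lay between 0.05 and 0.12 over the settings with both arrays, and between -0.15 and 0.13 with a single array. The recombination median of 0.05 was -0.03 with print-tip loess, -0.02 with the first spots alone and 0.12 with the second. The spore median of -0.005 was 0.06 with print-tip loess and -0.09 with the first spots alone. The meu median of 0.04 was 0.18 with the first spots alone, and -0.0647 to 0.0333 with a single array. That of the nuclear movement and segregation genes (-0.01) was -0.17 to 0.38 with a single array. Above background, the pob3 share of 98.0% was 92.9% at 3 background SDs in Cy3 and 2 times the background in Cy5, 99.5% at 1.5 times in both dyes and 93.9% over all 4 files; the wild-type share of 95.4% was 83.7% at the stricter limits and 89.8% over all 4 files. Of the named genes only mde6 changed sign, to -0.0473 with print-tip loess, over settings with both arrays. Print-tip loess also brought meu31 from 0.60 to 0.32, rec12 from -0.46 to -0.23, rec14 from 0.43 to 0.14 and mcp5 from 0.47 to 0.24. It brought mei3 from 0.22 to 0.06, mei2 from 0.33 to 0.21 and ssm4 from 0.19 to 0.11. Smaller too were meu13 (0.71 to 0.50), spo6 (0.58 to 0.43), mde5 (0.62 to 0.48) and meu14 (-0.55 to -0.40). Named genes that moved away from 0 included bqt1 (-0.55 to -0.58) and pat1 (-0.08 to -0.10). The count of 25 among all genes was 0 with median centring, 11 with an offset of 10, 38 with an intensity trend, 39 with both channels above background, 45 without background correction, 49 with the first spots and 53 with the second, 56 with print-tip loess and 68 with the submitters' values. Those values covered 3133 genes and 16 members. The share of members favouring Cy3 on both arrays (41.7%) was 25% with median centring and 36.2% to 47.9% otherwise, and the alternatives for it were added after the data were seen. Dim spots limit mde3, without a ratio, and meu26. For rec7, rec10 and meu32, 3 of 4 wild-type spots lay above the background limit. The cause of these changes was not tested. No paired analysis was possible because the 2 arrays form a single group of ratios, with no other group to share replicate numbers; the strains are paired within each array by the ratio itself.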
